A study of Homo sapiens with 16 samples.

Results

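Gene expression was examined in A375 melanoma cells 48 h after a pair of MAPK pathway drugs was taken away, against the same cells still on the drugs. These are 4 of the 16 RNA sequencing libraries of the series, chosen by their labels alone: 2 libraries at 48 h and 2 on drug. A375 is a human melanoma line that carries activated BRAF, and the cells here (DR A375) are a derivative resistant to dabrafenib, an inhibitor of BRAF, combined with trametinib, an inhibitor of MEK. The 48 h group received DMSO in place of both drugs for 48 h, and the on-drug group received dabrafenib at 0.5 µM with trametinib at 0.05 µM. The labels do not say whether the resistant derivative is 1 clone, nor whether the libraries that share a group were grown as separate cultures, so the p-values here rest on the spread between libraries, which may be technical. A separate on-drug group for 48 h was not analysed here, so time in culture and withdrawal cannot be told apart. The libraries taken 6 h and 24 h after withdrawal, 2 each, entered the same statistical fit and are used for comparison; 8 libraries of a second line were left out.

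BRAF passes its signal through the kinases MEK and ERK, and ERK switches on a short list of genes that report its activity, including phosphatases and Sprouty proteins that in turn restrain the pathway. ERK also raises AP-1, a family of paired transcription factors built from FOS and JUN proteins, which binds the sequence TGANTCA. Melanoma cells keep the pigment programme of melanocytes, run by the transcription factor MITF, but can lose it and take on an invasive, dedifferentiated state. Melanoma cells that resist inhibitors of this pathway can come to depend on them, so that removing the drug harms the cells, and the withdrawal design addresses what happens to expression then.

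The 48 h libraries held 10863255 and 11359331 counts and the on-drug libraries 15146068 and 12889659. Mitochondrially encoded genes took 2.60% and 3.28% of counts at 48 h, against 5.53% and 4.81% on drug. The 48 h libraries differed from each other more than the others did (chi-square over degrees of freedom of 3.62, against 1.86 on drug). SOX10, which maintains the melanocytic lineage, was expressed in both groups. It had 536 and 601 CPM (counts per gene scaled to a common library size, with TMM factors) at 48 h, against 642 and 658 CPM on drug. Other markers of that lineage, among them MITF, DCT, MLANA, TYRP1, PMEL and S100B, fell further at 48 h, as given below. Of 15 markers of other cell types, 5 and 4 were at 0 at 48 h, against 4 and 4 on drug, and the list summed to 60.28 and 67.44 CPM at 48 h, against 49.86 and 49.25 CPM on drug. At 48 h most of that sum was KRT18, a keratin of simple epithelia, with 46.6 and 53.1 CPM at 48 h, against 19.9 and 17.6 CPM on drug. LUM, a fibroblast marker and the largest member on drug, went the other way, with 2.58 and 2.79 CPM at 48 h, against 21.4 and 22.8 CPM on drug. COL1A1, of the same cell type, had 1.84 and 1.53 CPM at 48 h, against 0.472 and 0.480 CPM on drug. Of the 6 markers tested, 3 rose and 3 fell. The part of other cells in any result below was not tested. In bulk libraries, fewer cells of a kind and less RNA per cell cannot be told apart.

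Most genes differed in level 48 h after withdrawal. Of 14449 genes tested, 72.6% passed edgeR's quasi-likelihood test at 48 h (adjusted p under 0.05), 36.6% higher and 36.0% lower. When the change itself was required to exceed 1.5-fold, 31.3% passed, 15.1% higher and 16.2% lower. Counts of list members are read against these shares, and "past 1.5-fold" refers to the stricter test. They cover the members that passed the filter on low counts. A gene low in 1 group can pass it through the group where it is high, so these counts describe the members tested and not whole lists. Not tested were 5 of 25 pigment genes, 4 of 15 genes of the EGF list, 4 of 16 of the interleukin 6 list, 7 of 29 proteases, 6 of 30 matrix genes and 6 of 18 immune surface genes. Changes are log2 fold changes, 48 h minus on drug, ± SE, and levels are CPM with n = 2 in each group. The median log2 fold change over all genes tested was -0.000901. Where groups are said below to be apart or not to overlap, the share of all genes that do so was not counted.

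**Figure D1:**
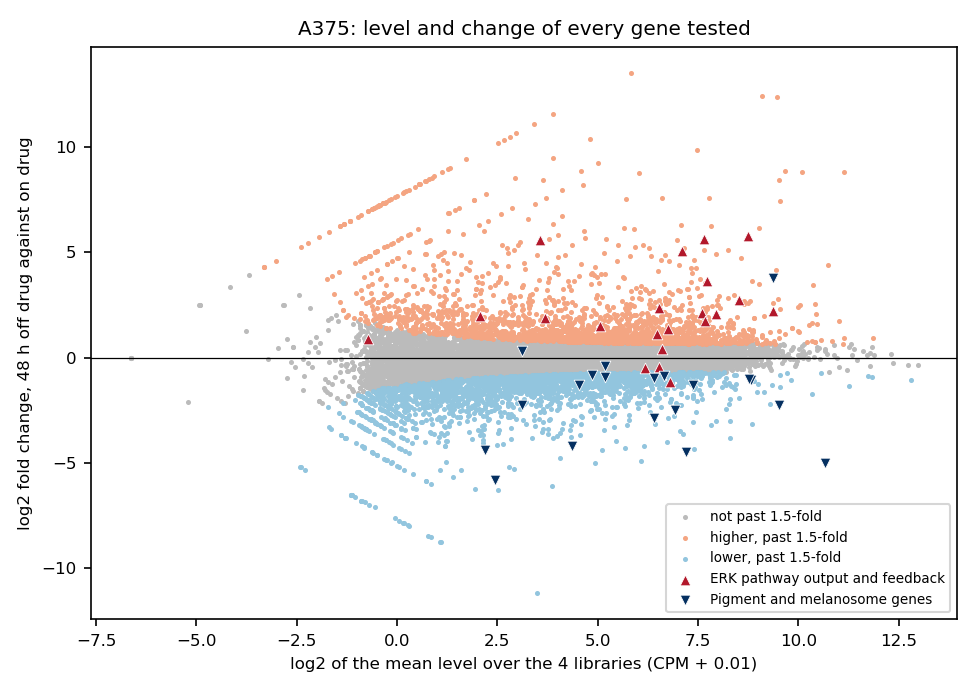
Each point is a gene tested in A375. The x axis is the log2 of its mean level over the 48 h and on-drug libraries (CPM + 0.01) and the y axis its log2 fold change at 48 h against on drug. Orange and light blue points passed the 1.5-fold test higher and lower. Straight diagonal rows of points at the left are genes with few or no counts in 1 group. Genes of ERK output (red triangles) lie mostly above 0 and pigment genes (dark blue triangles) mostly below, apart from S100A1 at 3.80.

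Genes that report ERK activity were high at 48 h. Of 21 tested, 17 rose and 3 fell, and 16 rose past 1.5-fold, with a median log2 fold change of 1.96. IER3, an early response gene linked to survival, had 833 and 853 CPM at 48 h, against 15.9 and 14.8 CPM on drug, a log2 fold change of 5.78 ± 0.07. DUSP5, a nuclear phosphatase that acts on ERK, had 380.5 and 403 CPM at 48 h, against 7.61 and 8.16 CPM on drug (5.63 ± 0.08, adjusted p = 5.42e-36). In both genes the 48 h libraries lay together and far above the on-drug pair. EMP1, which encodes an epithelial membrane protein, had 266 and 266 CPM at 48 h, against 8.02 and 7.96 CPM on drug (5.05 ± 0.07). KCNN4, a calcium-activated potassium channel, rose 47.5-fold to 23.1 ± 2.57 CPM. DUSP and Sprouty proteins feed back on the pathway, and DUSP4, DUSP5, DUSP6, SPRY1, SPRY2 and SPRY4 all rose past 1.5-fold, with log2 fold changes from 1.88 for SPRY1 to 5.63 for DUSP5. The ETS factors of the list were split: ETV4 rose by 1.11, while ETV5 had 66.8 and 72.4 CPM at 48 h, against 152 and 156 CPM on drug (-1.15 ± 0.06), the only member of the list that fell past 1.5-fold. SPRED1 and SPRED2, which restrain RAS, fell by small amounts (-0.48 and -0.45).

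Genes of the kinases themselves showed smaller changes. Of 20 genes of the RAS, RAF, MEK and ERK layer, 11 rose and 3 fell, with 4 and 2 past 1.5-fold and a median of 0.20. MAP2K1, which encodes MEK1, had 240.5 and 249.8 CPM at 48 h, against 82.8 and 77.7 CPM on drug (1.61 ± 0.05). The groups did not overlap. Among the RSK kinases, which ERK activates, RPS6KA1 (1.78) and RPS6KA3 (1.67) rose while RPS6KA2 fell (-1.68). BRAF, the target of dabrafenib, had 5529 and 5222 CPM at 48 h, against 4756 and 4664 CPM on drug (0.19 ± 0.04). The other 6 genes of the list, with the RAS genes among them, did not pass the test.

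Immediate-early transcription factors, which cells switch on within minutes of a growth signal, were still high after 48 h. Of 18 tested, 15 rose and 1 fell, with 12 past 1.5-fold higher and a median of 2.79. EGR1 had 439 and 451 CPM at 48 h, against 5.72 and 5.90 CPM on drug (6.26 ± 0.07), and NR4A1, an orphan nuclear receptor, had 551 and 636 CPM at 48 h, against 17.8 and 16.6 CPM on drug (5.11 ± 0.07). EGR3 rose 36.8-fold and NR4A2 34.4-fold. No 48 h library came near the on-drug range in these 4 genes. BTG2, an antiproliferative gene, fell by 0.47, and KLF2 did not pass the test (-0.10). Relative to 24 h the NR4A genes were split: NR4A1 was higher at 48 h (0.54 ± 0.05), and NR4A2 (-0.47 ± 0.04) and NR4A3 (-0.55 ± 0.11) were lower.

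RNA levels of AP-1 genes did not move together. Of 11 members tested, 7 rose and 4 fell, 5 and 3 past 1.5-fold. FOSB had 21.01 and 22.1 CPM at 48 h, against 0.708 and 0.755 CPM on drug (4.87 ± 0.20). FOSL1, which encodes FRA1, had 116 and 130.3 CPM at 48 h, against 11.2 and 12.5 CPM on drug (3.38 ± 0.08), and JUNB had 130.0 and 137 CPM at 48 h, against 14.7 and 14.1 CPM on drug (3.21 ± 0.08). All 3 were high in both 48 h libraries. The other JUN genes were lower: JUN had 30.7 and 27.9 CPM at 48 h, against 48.8 and 47.3 CPM on drug (-0.72 ± 0.08), and JUND had 19.1 and 19.6 CPM at 48 h, against 39.9 and 40.8 CPM on drug (-1.06 ± 0.09). ATF3, a stress-responsive partner of JUN proteins, fell too (-1.14 ± 0.10). FOS itself rose by 0.63. Small AP-1 partners BATF3 (2.12) and MAFF (1.59) rose.

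Because AP-1 binds TGANTCA, the promoters of 3 genes that rose and hold that sequence are shown: IL11, a cytokine of the interleukin 6 family, MMP10, a secreted protease, and EMP1. Each window runs from 250 bases before the RefSeq gene start to 50 after it, in GRCh38.p14, 5′ to 3′ on the gene's strand, and capitals mark TGANTCA or CATGTG on either strand. The IL11 window is chr19:55370414-55370713 on the minus strand, the MMP10 window chr11:102780579-102780878 on the minus strand and the EMP1 window chr12:13196476-13196775 on the plus strand.
IL11: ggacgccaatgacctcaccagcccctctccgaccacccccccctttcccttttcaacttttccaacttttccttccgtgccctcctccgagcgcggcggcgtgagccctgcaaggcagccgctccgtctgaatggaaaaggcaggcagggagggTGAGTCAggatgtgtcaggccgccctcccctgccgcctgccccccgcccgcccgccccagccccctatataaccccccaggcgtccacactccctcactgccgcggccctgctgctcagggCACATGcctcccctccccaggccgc
MMP10: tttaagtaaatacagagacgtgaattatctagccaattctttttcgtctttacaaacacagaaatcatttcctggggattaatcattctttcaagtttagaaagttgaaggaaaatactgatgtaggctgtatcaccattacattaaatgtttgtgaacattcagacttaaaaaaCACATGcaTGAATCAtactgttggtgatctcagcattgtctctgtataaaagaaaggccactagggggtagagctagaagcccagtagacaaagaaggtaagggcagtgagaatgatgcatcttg
EMP1: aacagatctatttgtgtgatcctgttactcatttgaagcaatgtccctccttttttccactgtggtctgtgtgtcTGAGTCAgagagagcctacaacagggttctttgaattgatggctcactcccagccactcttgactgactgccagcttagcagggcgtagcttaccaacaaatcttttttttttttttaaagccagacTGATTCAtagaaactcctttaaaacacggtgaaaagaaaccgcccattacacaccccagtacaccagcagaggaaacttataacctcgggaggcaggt
The match in IL11 starts 96 bases before the gene start and the match in MMP10 67 bases before it, and EMP1 has matches that start 175 and 48 bases before it. TGANTCA stood in 3 of 14 ERK output promoters in the RefSeq table, in 3 of 12 protease promoters and in 3 of 8 promoters of the interleukin 6 family, against 7.71% of 35116 promoters of all genes. It stood in 0 of 14 promoters of immediate-early factors, 0 of 12 of NF-kB genes, 0 of 14 of matrix genes and 0 of 18 of the TGF-beta list. Among ATF4 targets 3 of 16 promoters held it, among them those of DDIT3, which rose, and ATF5, which fell. Receptor tyrosine kinases had it in 3 of 16. Whether the sequence goes with the direction of change was not tested. These matches describe the letters of the windows; binding was not measured. The 3 genes were chosen with their changes known.

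The pigment programme fell. Of 20 pigment and melanosome genes tested, 18 fell and 2 rose, with 17 and 1 past 1.5-fold and a median of -1.30. Without the second 48 h library, or without either on-drug library, 1 of this list rose. The same held with DESeq2, with no filter on low counts and with only the libraries compared. MITF had 44.1 and 44.3 CPM at 48 h, against 415 and 405 CPM on drug (-3.21 ± 0.06). DCT (ENSG00000080166, chromosome 13, 94436808 to 94479682), an enzyme of melanin synthesis, had 94.0 and 104 CPM at 48 h, against 3119 and 3218 CPM on drug (-5.00 ± 0.05, adjusted p = 9.26e-39). MLANA, a melanosome protein, had 11.4 and 14.1 CPM at 48 h, against 276 and 287 CPM on drug (-4.46 ± 0.08). The 48 h and on-drug libraries were far apart in all 3. SLC24A5, an ion exchanger of the melanosome that affects pigmentation, had 1.84 and 2.34 CPM at 48 h, against 38.9 and 39.3 CPM on drug (-4.22 ± 0.14). TYRP1 had 0.369 and 0 CPM at 48 h, against 10.03 and 11.3 CPM on drug, and its log2 fold change of -5.79 ran from -10.13 to -4.82 when single libraries were left out. PMEL, which builds the fibrils of the melanosome, fell to 36.3 ± 3.46 CPM at 48 h, against 206 ± 2.13 CPM on drug.

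The fall was uneven within the programme. TYR, the rate-limiting enzyme of melanin synthesis, had 279.5 and 292 CPM at 48 h, against 573 and 593 CPM on drug (-1.03 ± 0.04), a smaller change than that of DCT. Carriers of melanosomes, MYO5A (-1.06), RAB27A (-0.91) and RAB38 (-1.30), fell less than MLANA or DCT did, although these differences between genes were not tested. S100A1, a calcium-binding protein, rose against the list, with 1170 and 1295 CPM at 48 h, against 86.8 and 89.9 CPM on drug (3.80 ± 0.05), whereas its relative S100B, a melanoma marker, had 20.9 and 19.6 CPM at 48 h, against 145 and 153 CPM on drug (-2.88 ± 0.08). S100A1 was higher and S100B lower in both 48 h libraries.

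Promoters of 3 pigment genes are shown because MITF binds CATGTG in pigment gene promoters, and these 3 hold it. TYR stands at chr11:89177625-89177924 and TYRP1 at chr9:12693135-12693434, both on the plus strand, and GPNMB at chr7:23246525-23246824 on the plus strand, with capitals as above.
TYR: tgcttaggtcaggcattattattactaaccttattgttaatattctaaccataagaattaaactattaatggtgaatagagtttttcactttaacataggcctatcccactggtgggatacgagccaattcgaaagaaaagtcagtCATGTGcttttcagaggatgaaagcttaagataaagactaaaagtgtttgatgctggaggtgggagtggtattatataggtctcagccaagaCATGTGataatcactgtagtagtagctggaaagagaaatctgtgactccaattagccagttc
TYRP1: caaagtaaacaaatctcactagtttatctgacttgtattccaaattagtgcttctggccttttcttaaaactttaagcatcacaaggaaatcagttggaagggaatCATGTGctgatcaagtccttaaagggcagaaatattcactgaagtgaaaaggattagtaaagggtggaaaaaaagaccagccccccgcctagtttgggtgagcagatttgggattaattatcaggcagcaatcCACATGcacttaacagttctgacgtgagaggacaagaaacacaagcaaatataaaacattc
GPNMB: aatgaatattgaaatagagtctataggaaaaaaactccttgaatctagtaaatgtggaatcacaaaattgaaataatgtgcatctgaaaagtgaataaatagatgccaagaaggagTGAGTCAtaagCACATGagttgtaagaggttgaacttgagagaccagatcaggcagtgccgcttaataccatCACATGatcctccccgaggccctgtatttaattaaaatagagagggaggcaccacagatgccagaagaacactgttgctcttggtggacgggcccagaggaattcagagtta
TYR has CATGTG starting 104 and 12 bases before the gene start, TYRP1 has matches at 144 and 11 bases before it, and GPNMB has matches at 123 and 62 bases before it as well as TGAGTCA at 134. CATGTG stood in 5 of 17 pigment gene promoters in the table, against 11.1% of all promoters. It also stood in 3 of 8 promoters of the interleukin 6 family, those of IL11, LIFR and IL6R. In the protease list 3 of 12 promoters held it, those of SERPINE2, MMP10 and ADAMTS6. Whether it goes with the direction of change was not tested. The windows of DCT and MLANA, which fell further than TYR, hold no match. GPNMB, a glycoprotein of melanosomes, had 256 and 265 CPM at 48 h, against 1212 and 1228 CPM on drug (-2.23 ± 0.04). All 3 genes were lower in both 48 h libraries, with changes of very different size. IL11 and MMP10, which rose, also hold CACATG, the same letters on the other strand.

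Regulators of the lineage split evenly. Of 15 tested, 7 rose and 7 fell, with 4 and 5 past 1.5-fold. Beside MITF, the losses included ZEB2, a zinc finger factor of the melanocyte lineage, with 30.4 and 32.3 CPM at 48 h, against 163 and 157 CPM on drug (-2.35 ± 0.07), and TFAP2A, a further lineage factor, with 25.99 and 30.5 CPM at 48 h, against 92.2 and 90.7 CPM on drug (-1.69 ± 0.07). PPARGC1A, the mitochondrial coactivator that MITF drives in melanoma, had 23.6 and 25.6 CPM at 48 h, against 110.2 and 107 CPM on drug (-2.14 ± 0.07). In all 3 the 48 h values lay below the on-drug values. ERBB3, a receptor of the EGF receptor family, fell by 1.33. SOX10 and PAX3, which stand above MITF, moved little (-0.19 and -0.32). The gains included MC1R, the melanocortin receptor (1.33 ± 0.12), BCL2A1, a survival gene (1.30 ± 0.07), and CDK2 (0.89 ± 0.05), which are known as MITF targets yet rose.

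Transcription factors of the epithelial to mesenchymal transition moved both ways. In melanoma, ZEB2 and SNAI2 are known from differentiated cells and ZEB1 from dedifferentiated ones. SNAI2 had 22.2 and 23.1 CPM at 48 h, against 137 and 135 CPM on drug (-2.59 ± 0.07). ZEB1 had 154 and 149 CPM at 48 h, against 44.8 and 41.6 CPM on drug (1.80 ± 0.06), and SNAI1 had 124 and 150.5 CPM at 48 h, against 19.8 and 21.1 CPM on drug (2.75 ± 0.08). The groups did not overlap in any of these. Of 17 genes listed 8 were tested, and of these 3 rose and 3 fell (37.5% each, against 36.6% and 36.0% of all genes tested). Of those that changed, all but CDH2, the N-cadherin gene (-0.37), did so past 1.5-fold. TWIST1 did not pass the test (0.12).

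**Figure D2:**
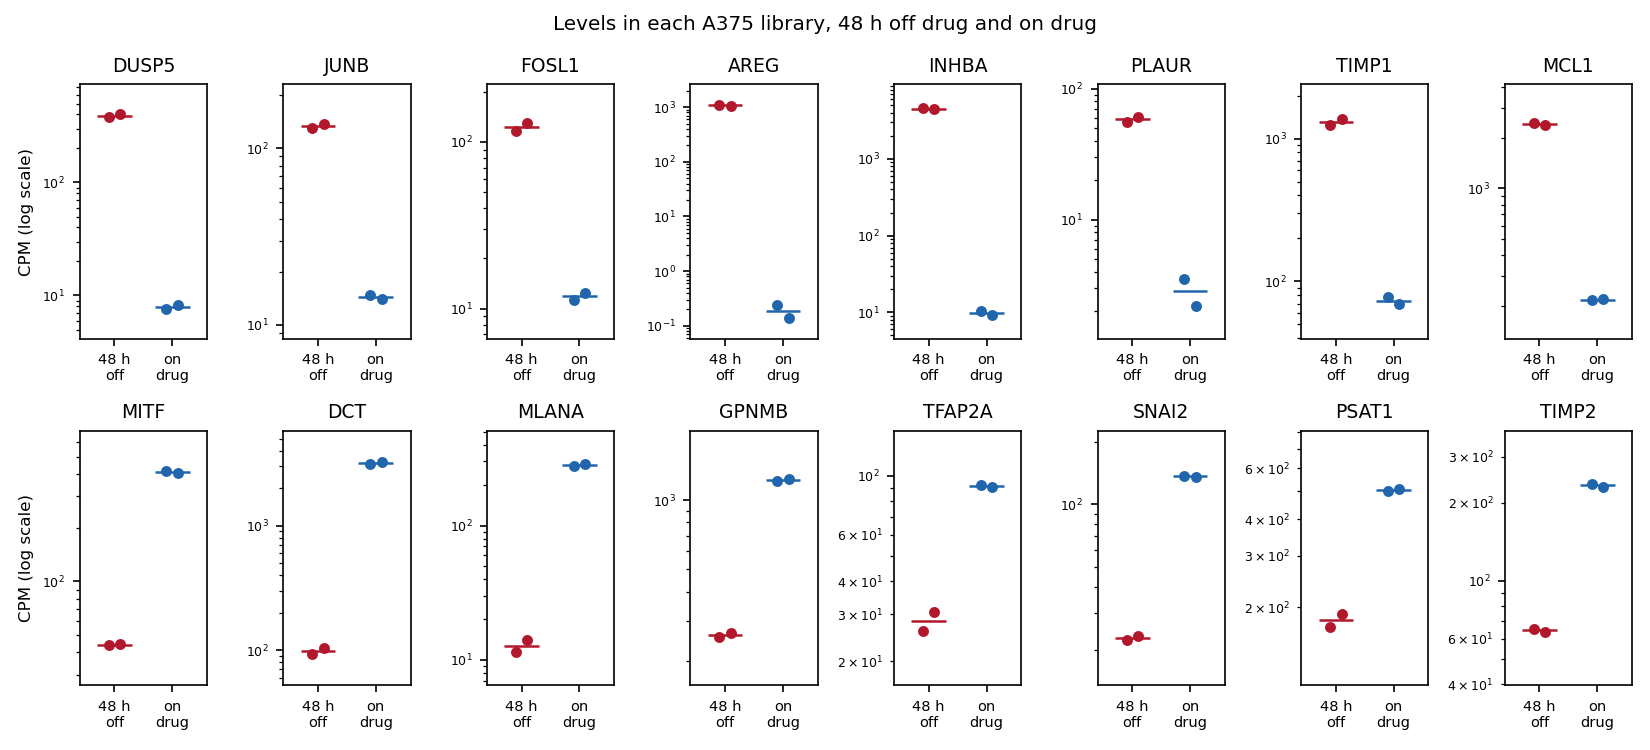
Level of 16 genes in each library, in CPM on log axes that differ between panels. Red points at the left are the 48 h libraries, blue points at the right the on-drug libraries, and bars are means of 2. The upper 8 genes were higher at 48 h and the lower 8 were lower, and in no panel do the groups overlap. These genes were chosen with earlier results of these data known, and 72.6% of all genes tested passed the test at 48 h.

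Genes of the dedifferentiated, invasive melanoma state rose more often than they fell: of 24 tested, 14 rose and 5 fell, with 12 and 3 past 1.5-fold and a median of 0.67. Without the first on-drug library 3 fell. NT5E, the ectoenzyme CD73 that makes adenosine, had 154 and 154 CPM at 48 h, against 5.49 and 5.35 CPM on drug (4.83 ± 0.08). TNFRSF12A, the receptor of the cytokine TWEAK, had 167 and 178 CPM at 48 h, against 9.56 and 10.3 CPM on drug (4.12 ± 0.07). HMGA2, a chromatin protein, rose 5.20-fold, and the filament protein gene VIM rose 1.94-fold. AXL, a receptor kinase typical of that state, had 12.5 and 13.6 CPM at 48 h, against 0.118 and 0.617 CPM on drug, and its change of 5.19 ran from 4.39 to 6.68 when single libraries were left out. Others fell. EGFR, often high in that state, had 19.4 and 16.7 CPM at 48 h, against 36.8 and 34.98 CPM on drug (-0.998 ± 0.09), and POSTN, the matrix protein periostin, had 54.5 and 55.1 CPM at 48 h, against 458 and 426 CPM on drug (-3.01 ± 0.05). Both were lower in each 48 h library, as was the receptor ROR1 (-1.32 ± 0.15).

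Receptor tyrosine kinases went in both directions, 9 higher and 7 lower of 21 tested. These shares, 42.9% and 33.3%, were near those of all genes tested, 36.6% and 36.0%. Past 1.5-fold, 8 rose and 5 fell (38.1% and 23.8%, against 15.1% and 16.2% of all genes tested). DDR1 and DDR2, both receptors for collagen, diverged. DDR1 had 64.1 and 68.3 CPM at 48 h, against 24.5 and 29.3 CPM on drug (1.30 ± 0.08), and DDR2 had 49.1 and 45.2 CPM at 48 h, against 234 and 216 CPM on drug (-2.25 ± 0.06). Each pair was apart from the other. EPHA2 (1.52 ± 0.09) and FGFR4 (1.39 ± 0.11) rose, and MERTK fell (-1.33 ± 0.09).

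Some of the largest rises were in genes of secreted ligands. Among ligands and receptors of the EGF family, AREG, which encodes amphiregulin (ENSG00000109321, chromosome 4, 74445134 to 74455009), had 1104 and 1070 CPM at 48 h, against 0.236 and 0.137 CPM on drug (12.41 ± 0.11). HBEGF had 42.6 and 38.8 CPM at 48 h, against 9.62 and 9.67 CPM on drug (2.08 ± 0.10), and TGFA had 133 and 132 CPM at 48 h, against 56.0 and 52.5 CPM on drug (1.28 ± 0.06). These 3 ligands were high in both 48 h libraries. The receptor ERBB4 (-1.96 ± 0.22) and LRIG1, which limits these receptors (-1.55 ± 0.13), fell. The ligand gene EGF had a log2 fold change of -0.90, which ran from -1.12 to -0.70 when single libraries were left out. Of 11 genes tested 6 rose and 3 fell. ERRFI1, a feedback inhibitor of EGFR, rose by 0.71.

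In the interleukin 6 family the ligand genes given here rose, and the receptor genes given here changed little. IL11, whose promoter is shown above, had 112 and 116 CPM at 48 h and 0 counts on drug, at least 1200-fold higher against a floor of 3 counts over the on-drug group. LIF had 2128 and 2262 CPM at 48 h, against 4.96 and 4.596 CPM on drug (8.84 ± 0.07), and CLCF1 had 30.2 and 33.04 CPM at 48 h, against 0.590 and 0.480 CPM on drug (5.85 ± 0.18). All 3 genes were well above 0 in both 48 h libraries and low or at 0 on drug. Of the receptor genes, the shared IL6ST fell by 0.22. LIFR (0.17) and OSMR (0.13) passed the test, but LIFR did not without the first 48 h library or with DESeq2, OSMR not without the second 48 h library, and neither without the second on-drug library or with no filter on low counts. STAT3, which carries their signal, fell (-0.83 ± 0.05). Of 12 genes tested, 6 rose and 3 fell. Of those tested, 2 had at most 3 counts on drug and so passed the filter through the withdrawal groups.

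Of 31 chemokine and other cytokine genes listed, 15 were not tested. Of the 16 tested 13 rose, 12 past 1.5-fold, and the others did not pass, but 5 of those tested had at most 3 counts on drug and so passed the filter through the withdrawal groups. CXCL8, the neutrophil chemokine interleukin 8, had 1635 and 1598 CPM at 48 h, against 3.54 and 3.43 CPM on drug (8.85 ± 0.08). VEGFA, the vascular growth factor, had 253 and 261 CPM at 48 h, against 54.9 and 52.5 CPM on drug (2.26 ± 0.06). Both were higher in each 48 h library. IL24, a cytokine first found in differentiating melanoma cells, had 128 and 133 CPM at 48 h, against 0.472 and 0.0686 CPM on drug, with a change of 8.79 that ran from 8.08 to 10.70 when single libraries were left out. Several others were low throughout: IL1A was at least 23.5-fold and CSF2 at least 15.3-fold higher, with means of 2.23 and 1.46 CPM at 48 h and 0 counts of either on drug. IL1B had a ratio of 154 (95% interval for counting error 27 to 6120), and its fitted change ran from 6.15 to 8.91 when single libraries were left out. The alarmin gene IL33 averaged 2.19 CPM at 6 h, 17.6 CPM at 24 h and 1.82 CPM at 48 h, so of these times it was highest at 24 h. Its on-drug libraries held 1 count, which gives a ratio of 57.4 (95% interval for counting error 9.73 to 2320) and a fitted change from 4.73 to 7.50 with single libraries left out.

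Subunit and feedback genes of NF-kB, the inflammatory transcription factor, rose as well, 12 of 14 tested, 7 of them past 1.5-fold, with a median of 0.81. TNFAIP3, the A20 protein that shuts NF-kB off, had 57.4 and 60.0 CPM at 48 h, against 4.54 and 3.50 CPM on drug (3.85 ± 0.11). NFKB2, a subunit of the noncanonical arm, had 129 and 144 CPM at 48 h, against 24.7 and 24.1 CPM on drug (2.49 ± 0.07), and its partner RELB rose by 2.49 ± 0.15. BIRC3, an inhibitor of apoptosis and known target, rose by 2.99 ± 0.19. NFKB1, of the canonical arm, rose by 0.49.

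In the TGF-beta superfamily the activin and BMP ligand genes given here rose, and receptors and ID genes were mixed. INHBA (ENSG00000122641, chromosome 7, 41685114 to 41703108), the subunit of activin A, had 4559 and 4425 CPM at 48 h, against 10.4 and 9.33 CPM on drug (8.82 ± 0.07, adjusted p = 3.85e-43). BMP6 had 188 and 178 CPM at 48 h, against 16.9 and 15.9 CPM on drug (3.48 ± 0.07), and GDF15, a stress cytokine, had 873 and 944 CPM at 48 h, against 228 and 228 CPM on drug (1.99 ± 0.05). The 48 h pair was above the on-drug pair in each. TGFB1 rose by 1.98 ± 0.08 and BMP2 by 2.50 ± 0.13. ID1, a target of BMP signals, had 99.9 and 98.3 CPM at 48 h, against 16.7 and 18.04 CPM on drug (2.52 ± 0.07), while ID3, of the same family, had 30.4 and 37.6 CPM at 48 h, against 104 and 101 CPM on drug (-1.59 ± 0.08). The inhibitor SMAD6 (-1.98 ± 0.12) and the receptor TGFBR1 (-1.08 ± 0.08) fell. In all, 9 of 20 rose and 6 fell (45% and 30%, against 36.6% and 36.0% of all genes tested).

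Proteases of the matrix rose and fell in sets. Of 22 tested, 16 rose and 6 fell, 13 and 6 past 1.5-fold, with a median of 1.53. MMP1 (ENSG00000196611, chromosome 11, 102789920 to 102798160), interstitial collagenase, had 67.0 and 61.5 CPM at 48 h and 3 counts in all on drug, a ratio of 675 (95% interval for counting error 230.0 to 3280), and its fitted change ran from 8.77 to 9.87 when single libraries were left out. MMP10, which degrades matrix proteins, had 13 and 15.04 CPM at 48 h and 0 counts on drug, at least 147-fold higher. At 24 h MMP1 averaged 8.002 CPM and MMP10 0.856 CPM, so both were already above on drug and still below their 48 h levels. PLAUR, the urokinase receptor, had 55.8 and 60.8 CPM at 48 h, against 3.54 and 2.19 CPM on drug (4.32 ± 0.13). ADAMTS4, an aggrecan-degrading protease, had 27.5 and 31.2 CPM at 48 h, against 0.472 and 0.206 CPM on drug, and its change of 6.36 ran from 5.93 to 7.09 when single libraries were left out.

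The membrane-type matrix proteases and gelatinase A went the other way. MMP14, which activates MMP2 at the cell surface, had 7.28 and 4.59 CPM at 48 h, against 23.2 and 19 CPM on drug (-1.84 ± 0.15), and MMP2 had 98.0 and 106 CPM at 48 h, against 228 and 221 CPM on drug (-1.14 ± 0.05). TIMP2, the inhibitor that joins these 2 at the membrane, had 65.3 and 63.8 CPM at 48 h, against 235 and 230.3 CPM on drug (-1.85 ± 0.05). All 3 were lower in both 48 h libraries. MMP15 (-1.12) and MMP17 (-1.20), further membrane-type members, fell as well. The inhibitors diverged: TIMP1 had 1248 and 1373 CPM at 48 h, against 77.7 and 69.4 CPM on drug (4.15 ± 0.06), and TIMP3 rose by 2.87 ± 0.20.

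Matrix genes moved in both directions: 14 of 24 tested rose and 9 fell, 9 and 7 past 1.5-fold. COL6A3, a chain of collagen VI, had 108 and 99.3 CPM at 48 h, against 0.531 and 0.549 CPM on drug (7.56 ± 0.13), and the other chains of that collagen rose less, COL6A1 by 1.44 ± 0.06 and COL6A2 by 1.82 ± 0.07. TGFBI, a matrix protein that binds integrins, had 319 and 329 CPM at 48 h, against 14.46 and 11.04 CPM on drug (4.66 ± 0.08). TNC, tenascin C, had 1755 and 1686 CPM at 48 h, against 345 and 298 CPM on drug (2.42 ± 0.05). On the falling side stood LUM, the proteoglycan lumican (-3.04 ± 0.16), which is also a fibroblast marker, and SPP1, osteopontin, with 10.4 and 9.63 CPM at 48 h, against 35.5 and 34.4 CPM on drug (-1.80 ± 0.10). FN1, fibronectin, rose by 0.43 ± 0.06.

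Among integrins and laminins 14 of 24 tested rose and 6 fell, 11 and 2 past 1.5-fold, with a median of 0.69. ITGA3, a laminin-binding chain, had 324 and 339 CPM at 48 h, against 17.4 and 17.6 CPM on drug (4.25 ± 0.06). ITGA5, the fibronectin-binding chain, had 577 and 621 CPM at 48 h, against 76.3 and 74.1 CPM on drug (2.99 ± 0.05), and ITGA2, a collagen-binding chain, had 199.6 and 182 CPM at 48 h, against 29.03 and 28.9 CPM on drug (2.72 ± 0.06). The on-drug libraries were low in each. ITGA9 was lost, with 12.7 and 8.64 CPM at 48 h, against 71.9 and 71.5 CPM on drug (-2.75 ± 0.10), and LAMC1, a widely used laminin chain, fell by 0.74 ± 0.04. YAP and TEAD targets, which respond to cell shape and tension, showed no common direction, with 8 of 17 higher and 5 lower. These shares were 47.1% and 29.4%, against 36.6% and 36.0% of all genes tested. AMOTL2, a feedback target of YAP, had 2.12 and 1.89 CPM at 48 h, against 15.2 and 15.9 CPM on drug (-2.95 ± 0.18), while AMOTL1 rose by 1.61 ± 0.05.

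**Figure D3:**
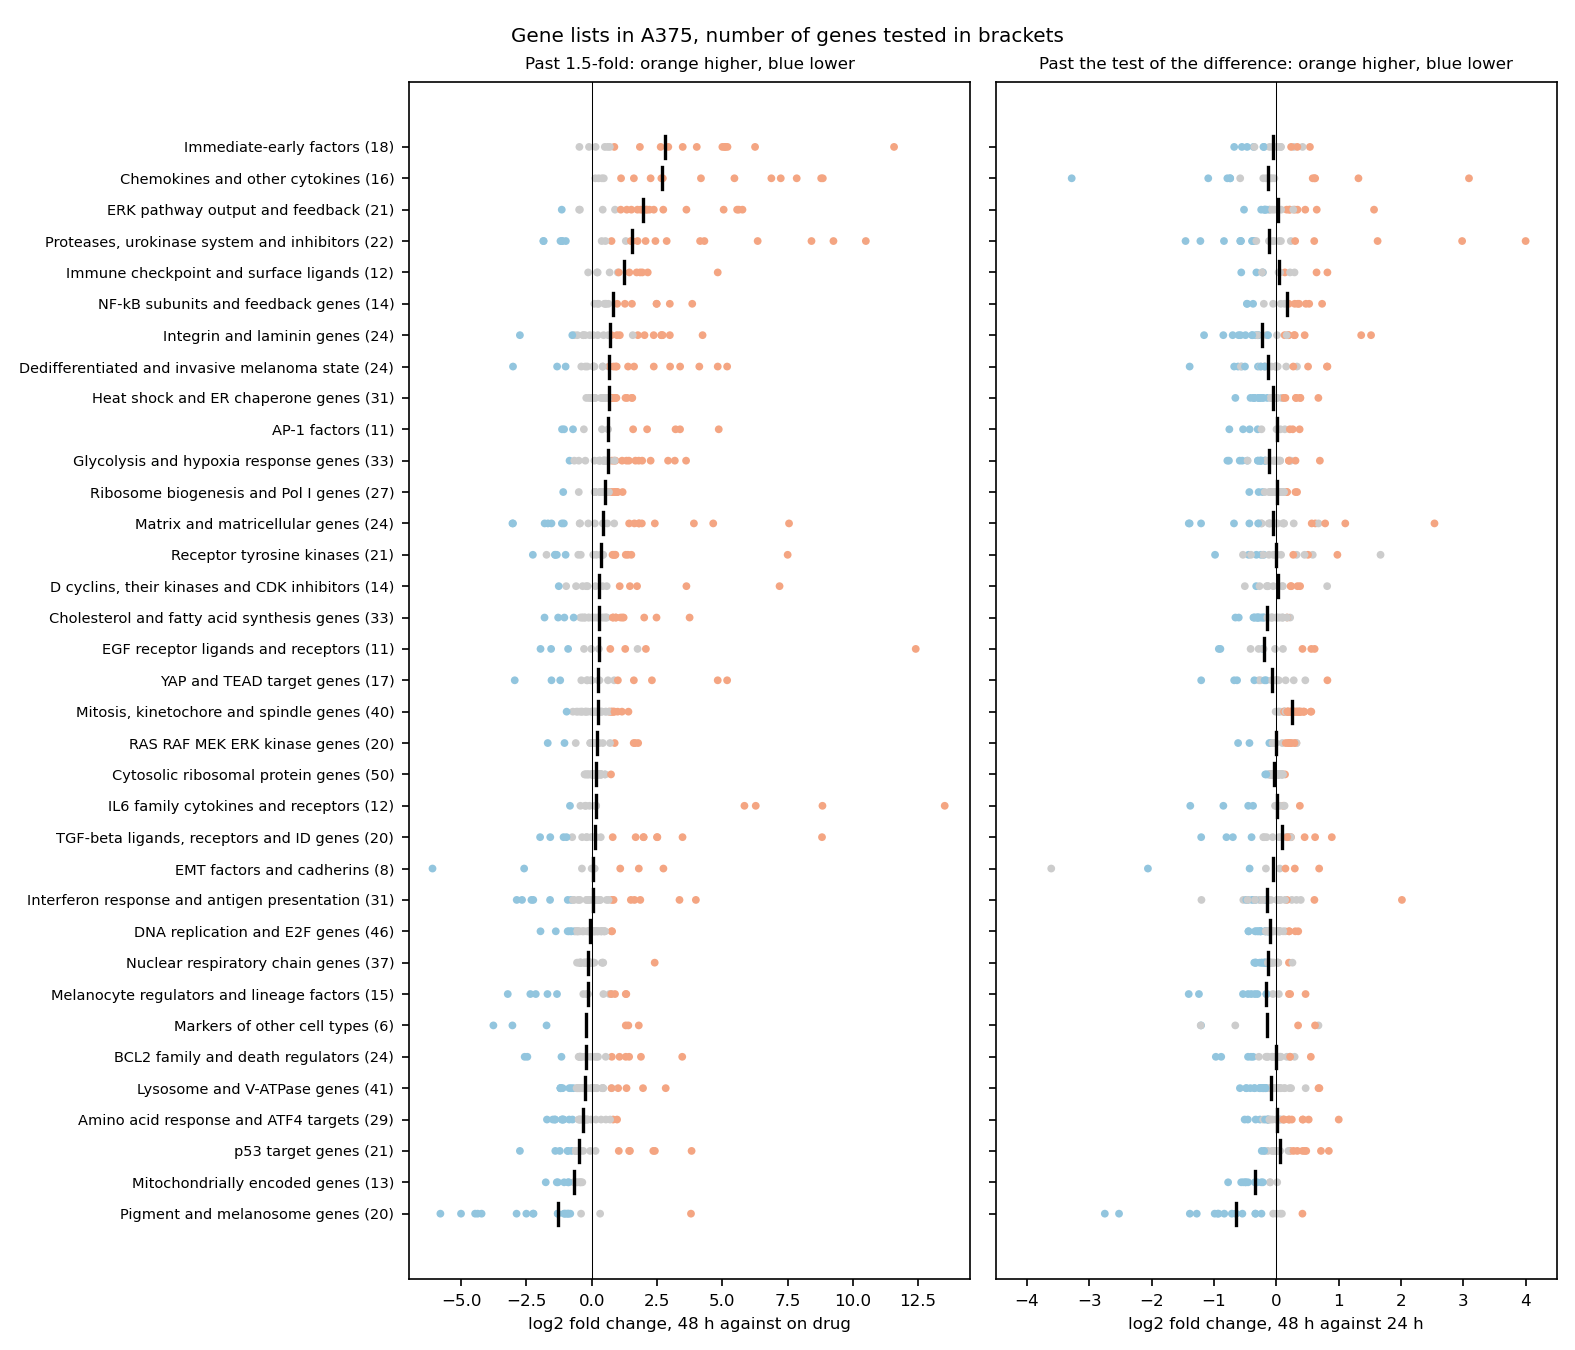
Gene lists down the page, with the number of genes tested in brackets, ordered by their median. Each point is a gene and each black bar a list median. The left panel gives log2 fold changes at 48 h against on drug, with orange and blue for genes past 1.5-fold higher and lower, and the right panel 48 h against 24 h, with the colours for genes past the test of that difference. Immediate-early factors have the highest median at the left (2.79) and pigment genes the lowest (-1.30), and mitosis genes lie to the right of 0 in the right panel.

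Genes of mitosis had dipped and come back. Against on drug, 23 of 40 tested were higher at 48 h and 11 lower, with 10 and 1 past 1.5-fold and a median of 0.24. The list's median against on drug was -0.79 at 6 h and -0.06 at 24 h. PTTG1, securin, had 152 and 158 CPM at 48 h, against 59.6 and 56.9 CPM on drug (1.41 ± 0.06), and UBE2C, an enzyme of the anaphase-promoting complex, had 103 and 109.8 CPM at 48 h, against 46.5 and 48.6 CPM on drug (1.16 ± 0.06). CCNB1, cyclin B1, had 188 and 196 CPM at 48 h, against 136 and 130.1 CPM on drug (0.53 ± 0.05). These 3 were higher in both 48 h libraries, but other genes were not. FOXM1, the transcription factor of the mitotic programme, had 56.5 and 60.7 CPM at 48 h, against 110.1 and 118 CPM on drug (-0.96 ± 0.06), and the kinetochore genes CENPA (-0.72) and CENPF (-0.54) and the spindle motor KIF11 (-0.58) fell.

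Replication genes were close to the shares of all genes, with 14 of 46 higher (30.4%) and 19 lower (41.3%), 2 and 7 past 1.5-fold, with a median of -0.05. Without 1 of the 48 h or 1 of the on-drug libraries (the libraries labelled B), the count lower past 1.5-fold was 4. TYMS and TK1, enzymes that both yield thymidylate, fell (-0.87 ± 0.05 and -0.92 ± 0.07), as did E2F2, an activating E2F factor (-1.38 ± 0.11). Of the helicase genes, MCM3 fell by 0.67 and MCM7 rose by 0.36, and RFC3 (0.76 ± 0.05) and RFC4 (0.78 ± 0.07), which load the sliding clamp, rose.

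Cyclin D1 and a CDK inhibitor were both higher. CCND1 had 398 and 383 CPM at 48 h, against 33.1 and 29.9 CPM on drug (3.63 ± 0.06), and CDKN1A, which encodes p21, had 436 and 447 CPM at 48 h, against 158 and 162 CPM on drug (1.47 ± 0.05). CDKN1C, p57, averaged 1.42 CPM at 48 h and had 0 counts on drug, which makes it at least 14.8-fold higher. CDKN2C, p18, had 21.01 and 20.5 CPM at 48 h, against 49.1 and 50.5 CPM on drug (-1.26 ± 0.08), and CDK4 fell by 0.60. Of 14 genes of this list 7 rose and 6 fell.

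CDKN1A was not joined by most other p53 targets: 7 of 21 rose and 13 fell, with a median of -0.47. Past 1.5-fold, 6 rose and 6 fell (28.6% each, against 15.1% and 16.2% of all genes tested). PLK3, a stress kinase, had 89.3 and 95.3 CPM at 48 h, against 6.31 and 6.72 CPM on drug (3.83 ± 0.09), and GADD45A, a growth arrest gene, had 88.1 and 82.4 CPM at 48 h, against 15.9 and 17.4 CPM on drug (2.36 ± 0.08). TP53INP1, which aids p53 in stress, had 6.27 and 6.12 CPM at 48 h, against 42.9 and 40.4 CPM on drug (-2.75 ± 0.11). The groups were apart in all 3. MDM2 (-0.32 ± 0.05) and SESN2 (-1.39 ± 0.09) fell.

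The genes of cell survival and death moved on both sides. MCL1, a survival protein of the BCL2 family, had 2448 and 2378 CPM at 48 h, against 217 and 219 CPM on drug (3.47 ± 0.04, adjusted p = 2.00e-36), and BCL2 had 4.33 and 5.40 CPM at 48 h, against 27.1 and 26.7 CPM on drug (-2.46 ± 0.13). Among BH3-only genes, which promote death, BMF fell (-2.57 ± 0.15) and BCL2L11, which encodes BIM, fell by 0.44, whereas BBC3, which encodes PUMA, rose, with 11.2 and 11.1 CPM at 48 h, against 5.31 and 5.35 CPM on drug (1.06 ± 0.14). CASP9, the initiator caspase of the mitochondrial route, had 36.6 and 39.4 CPM at 48 h, against 10.8 and 9.67 CPM on drug (1.89 ± 0.10), and TNFRSF10B, a TRAIL receptor, rose by 1.44 ± 0.05. The list had 9 genes higher and 12 lower of 24 tested (37.5% and 50%, against 36.6% and 36.0% of all genes tested). Cell death itself was not measured.

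**Figure D4:**
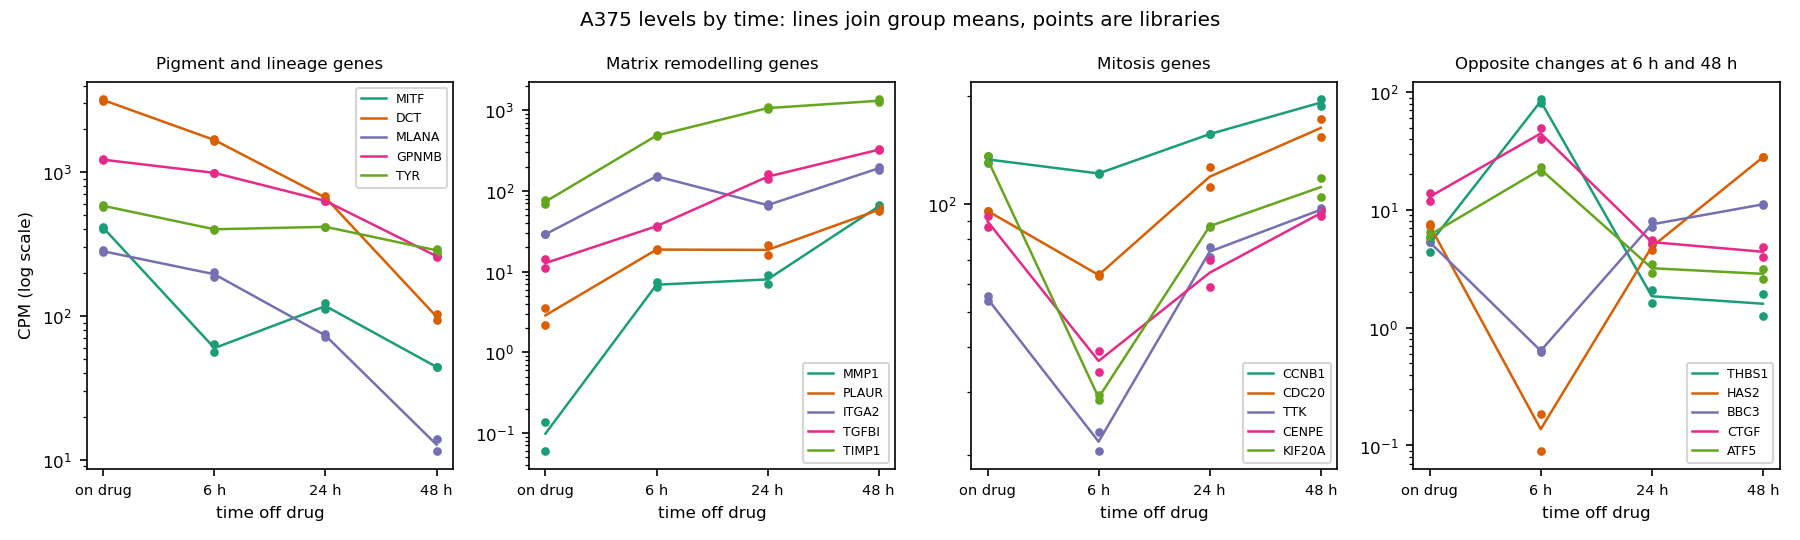
Mean level (lines) and single libraries (points), in CPM on log axes, on drug and 6, 24 and 48 h after withdrawal; libraries at 0 are not drawn. DCT and MLANA fall at each step, MMP1 and PLAUR step up again after 24 h, mitosis genes dip at 6 h, and the right panel shows genes whose changes from on drug were opposite at 6 h and 48 h.

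Interferon genes had no common direction, 11 of 31 higher and 12 lower. These shares, 35.5% and 38.7%, were near those of all genes tested, 36.6% and 36.0%. HLA-B, a class I gene, had 162 and 164 CPM at 48 h, against 59.1 and 56.2 CPM on drug (2.83-fold), and HLA-C, another, rose by 0.77 ± 0.06. HLA genes are near-identical, and how the authors' counting split their reads is not given, so each value is uncertain. ISG20, an interferon-induced nuclease, had 49.7 and 57.5 CPM at 48 h, against 3.13 and 3.64 CPM on drug (3.99 ± 0.12), and IRF7 rose by 3.36 ± 0.18. Of the classical interferon targets ISG15 rose (1.64 ± 0.18), whereas MX2 had 35.02 and 35.8 CPM at 48 h, against 108 and 106 CPM on drug (-1.59 ± 0.06), and IFIT1 (-2.87), IFIT2 (-2.31) and IFIT3 (-2.24) were lower from low levels on drug. Surface ligands that immune cells read rose: 10 of 12 tested were higher, with a median of 1.24. PVR, the ligand of TIGIT, had 147 and 153 CPM at 48 h, against 41.2 and 41.8 CPM on drug (1.85 ± 0.06), and CD276, B7-H3, had 327 and 359 CPM at 48 h, against 127 and 125 CPM on drug (1.44 ± 0.05). MICA (1.72 ± 0.11) and ULBP2 (2.15 ± 0.18), ligands of the receptor NKG2D, rose too. CD274, which encodes PD-L1, averaged 1.59 CPM at 48 h and 0.790 CPM on drug (0.999 ± 0.37, adjusted p = 0.0172). It did not pass with DESeq2, nor without either on-drug library or the first 48 h library (adjusted p from 0.0154 to 0.108 over the alternatives).

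Stress programmes went in opposite directions. Heat shock and ER chaperone genes rose, 26 of 31 tested with 1 lower and a median of 0.65. Without the second 48 h library 2 were lower. HSPA5, the ER chaperone BiP, had 1793 and 1866 CPM at 48 h, against 625 and 621 CPM on drug (1.55 ± 0.05), and BAG3, a cofactor of HSP70, had 195 and 204 CPM at 48 h, against 78.2 and 77.0 CPM on drug (1.36 ± 0.05). Targets of ATF4, the factor of the amino acid response, fell: 22 of 29 were lower and 6 higher, with a median of -0.34. PSAT1 and PHGDH, enzymes of serine synthesis, were lower: PSAT1 had 171 and 189 CPM at 48 h, against 502 and 508 CPM on drug (-1.49 ± 0.05), and PHGDH had 166 and 189 CPM at 48 h, against 396 and 387 CPM on drug (-1.14 ± 0.05). ATF4 itself fell by 1.14 ± 0.05. DDIT3, which encodes CHOP, rose against its list (0.97 ± 0.07).

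Glycolysis and hypoxia genes rose: 29 of 33 were higher and 4 lower, 13 of the higher ones past 1.5-fold, with a median of 0.63. NDRG1, a hypoxia marker, had 289 and 303 CPM at 48 h, against 24.0 and 24.3 CPM on drug (3.62 ± 0.06), and PFKFB4, which drives glycolytic flux, had 101 and 103 CPM at 48 h, against 11.6 and 10.8 CPM on drug (3.18 ± 0.07). SLC2A3, a glucose transporter, rose by 1.93 ± 0.06, and LDHA, lactate dehydrogenase, by 0.77 ± 0.04.

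The respiratory chain was lower, more so in the part encoded in mitochondria. All 13 mitochondrially encoded genes tested fell, 6 past 1.5-fold, with a median of -0.69. MT-CO1, a core subunit of complex IV, had 4027 and 5256 CPM at 48 h, against 10280 and 9006 CPM on drug (-1.05 ± 0.07), and MT-CYB had 1156 and 1658 CPM at 48 h, against 4020 and 3081 CPM on drug (-1.34 ± 0.09). The 48 h libraries were unequal in their mitochondrial share of counts (2.60% and 3.28%), and without the second of them (library C) 10 of the genes passed 1.5-fold. Nuclear genes of the chain had 21 of 37 lower and 4 higher, with a median of -0.14 and 1 gene past 1.5-fold, NDUFV2, which rose by 2.41 at a low level. COX5B, of complex IV, had 85.8 and 77.3 CPM at 48 h, against 118 and 123 CPM on drug (-0.56 ± 0.06).

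Ribosome biogenesis genes rose, 24 of 27 higher and 2 lower, with a median of 0.49. RRP12, which matures ribosomal subunits, had 122 and 136 CPM at 48 h, against 57.9 and 55.6 CPM on drug (1.19 ± 0.06), while POLR1A, the largest subunit of RNA polymerase I, had 103 and 102 CPM at 48 h, against 219 and 219 CPM on drug (-1.09 ± 0.05). Ribosomal protein genes rose slightly, 31 of 50 higher and 5 lower, with 1 past 1.5-fold and a median of 0.17. Without the first 48 h library 3 were lower, and without the second 9.

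Lipid and lysosome genes were mixed. In cholesterol and fatty acid synthesis 18 of 33 rose and 11 fell. INSIG1, a sterol sensor and target of SREBP factors, had 350.2 and 345 CPM at 48 h, against 26.4 and 25.2 CPM on drug (3.75 ± 0.07). SREBF1 (-1.05 ± 0.08) and LSS, a later enzyme of the pathway (-1.28 ± 0.08), fell. Of 41 lysosome genes 22 fell and 10 rose, with a median of -0.27. CTSL, a secreted and lysosomal cathepsin, had 522 and 539 CPM at 48 h, against 76.0 and 72.6 CPM on drug (2.83 ± 0.05), while CTSA (-1.20 ± 0.05), TPP1 (-1.17 ± 0.05) and the chloride transporter CLCN7 (-1.20 ± 0.06) fell.

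Outside the lists, genes were named by size of change past 1.5-fold at a mean of at least 10 CPM. STC1, the secreted stanniocalcin, had 1420 and 1432 CPM at 48 h, against 0.118 and 0.412 CPM on drug, and its change of 12.40 ran from 11.73 to 13.45 when single libraries were left out. MYEOV, a gene named for its overexpression in myeloma, was at least 224-fold and the neuronal gene BRINP2 at least 165-fold higher, both with 0 counts on drug. PTPN22 and CD52, which are best known from lymphocytes, were at least 133-fold and at least 121-fold higher, with 12.2 and 13.2 CPM and 10.6 and 12.3 CPM at 48 h and 0 counts on drug. PTPRC, which encodes the leukocyte marker CD45, had 0.184 and 0.180 CPM at 48 h, against 3.01 and 2.13 CPM on drug (-3.76 ± 0.51), so that marker fell. CLDN4, a tight junction claudin, averaged 55.8 CPM at 48 h and had 1 count in all on drug, which gives a ratio of 1760 (95% interval for counting error 315 to 69600), and its fitted change ran from 9.66 to 12.42 when single libraries were left out. GEM, a small GTPase, rose 344-fold, and CORO2B, a coronin, 194-fold. TRAF1, an adaptor of TNF receptors, averaged 48.2 CPM at 48 h and had 3 counts in all on drug, which gives a ratio of 506 (95% interval for counting error 173 to 2460).

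Among the losses outside the lists, GALNT3, an enzyme of O-linked glycosylation, had 0 counts at 48 h and 22.9 and 22.02 CPM on drug, at least 165-fold lower. ABCB5, a transporter known from melanoma stem-like cells, had 0.369 and 0.360 CPM at 48 h, against 14.4 and 15.2 CPM on drug (-5.30 ± 0.26). BANCR, a long noncoding RNA first described in BRAF-mutant melanoma, had 4.61 and 5.22 CPM at 48 h, against 97.2 and 98.4 CPM on drug (-4.31 ± 0.10). The on-drug libraries were far higher in all 3. P2RX7, an ATP-gated channel, fell (-4.01 ± 0.08), and so did ALDH1A1, a retinal dehydrogenase (-4.15 ± 0.26), and NUPR1, a stress gene (-4.40 ± 0.13). ICOS, a T cell costimulator, had 3 counts at 48 h and 10.97 and 11.7 CPM on drug, a ratio of 82.6 (95% interval for counting error 28.1 to 403) towards the on-drug group, and its fitted change ran from -10.21 to -5.31 when single libraries were left out.

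The last comparison set 48 h against 24 h and asked what was still moving. Of the 14449 genes tested, 29.9% passed, 14.2% higher and 15.7% lower at 48 h. These were 4318 genes, 2048 of them higher. DESeq2 called 2223 genes, 849 of them higher, and without the first 24 h library 1287 were higher. Pigment genes were still falling: 15 of 20 were lower and 1 higher than at 24 h, with a median of -0.65. DCT had 94.0 and 104 CPM at 48 h, against 642 and 686 CPM at 24 h (-2.75 ± 0.05, adjusted p = 9.24e-30), and MLANA had 11.4 and 14.1 CPM at 48 h, against 75.0 and 71.2 CPM at 24 h (-2.52 ± 0.09). MITF had 44.1 and 44.3 CPM at 48 h, against 111 and 123 CPM at 24 h (-1.40 ± 0.07). Its course was uneven, with a mean of 410.0 CPM on drug, 59.8 CPM at 6 h, 117 CPM at 24 h and 44.2 CPM at 48 h.

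Mitosis genes were higher at 48 h than at 24 h in 31 of 40, and the others did not pass, with a median difference of 0.25. CDC20, an activator of the anaphase-promoting complex, had 154 and 172 CPM at 48 h, against 127 and 112 CPM at 24 h (0.45 ± 0.06), and CENPE, a kinetochore motor, had 95.9 and 92.9 CPM at 48 h, against 59.0 and 69.9 CPM at 24 h (0.56 ± 0.07). In both genes the groups were apart. Replication genes had 4 higher and 17 lower. Glycolysis genes had 4 higher and 15 lower of 33, cholesterol genes 1 and 16 of 33, lysosome genes 2 and 18 of 41, and 10 of 13 mitochondrially encoded genes were lower.

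Against 24 h the protease list had 5 higher and 9 lower of 22, with a median of -0.11, and integrins and laminins 8 higher and 12 lower of 24. Genes higher at 48 h included the following, some of them outside these lists. MMP10 had 13 and 15.04 CPM at 48 h, against 0.943 and 0.770 CPM at 24 h (3.997 ± 0.22), and MMP1 had 67.0 and 61.5 CPM at 48 h, against 8.99 and 7.02 CPM at 24 h (2.98 ± 0.10). PLAUR was 3.08-fold and ITGA2 2.87-fold higher at 48 h than at 24 h, and HAS2, the hyaluronan synthase, had 27.9 and 28.1 CPM at 48 h, against 4.59 and 5.13 CPM at 24 h (2.54 ± 0.12). All 5 were higher in each 48 h library than in either 24 h library. IL11 went down over the same day, with 112 and 116 CPM at 48 h, against 304 and 289 CPM at 24 h (-1.38 ± 0.05). Outside the lists, SCUBE2, a secreted protein of hedgehog signalling (2.81 ± 0.13), STRA6, the receptor of retinol-binding protein (2.40 ± 0.16), and DENND2A (1.87 ± 0.05) were higher, and LOXL4, a lysyl oxidase (-1.76 ± 0.06), MGP, matrix Gla protein (-1.67 ± 0.06), and BCAN, the proteoglycan brevican (-1.57 ± 0.16), were lower at 48 h.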

How the data were processed

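Libraries of total RNA were sequenced on cells grown in culture, and the authors deposited raw read counts per Ensembl gene in 1 table, which holds 30813 genes. Reads were aligned with TopHat2 2.1.0 and Bowtie 1.0.0 to GRCh38, per the submitters' processing notes; the read counter, annotation release and strand setting were not named in the sources used here, so reads of overlapping genes on the 2 strands cannot be told apart.

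From these counts, the 8 A375 libraries were fitted together as 4 groups of 2 with edgeR 4.0.16 in R 4.3.3. Counts were scaled by TMM, genes were kept by filterByExpr at its defaults (count 10, total 15), and the quasi-likelihood F test was run with 4 residual degrees of freedom. The 6 h and 24 h libraries share the estimate of spread with the groups compared. The second call rule was edgeR's test against a fold of 1.5. P-values were adjusted by Benjamini-Hochberg over all 14449 genes tested, with a threshold of 0.05. TMM scaling takes most genes to be unchanged or balanced, so with 72.6% of genes called, changes are relative to the other genes and not amounts of RNA per cell. CPM values use TMM-scaled library sizes; each SE was taken from the fitted log2 change and its F statistic. A group with 0 counts gives a bound against a floor of 3 counts over its 2 libraries, and 1 to 3 counts a ratio with a 95% exact counting interval; both intervals and floors leave out variation between cultures. The common biological coefficient of variation was 3.19%.

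Of 907 entries in 35 gene lists, 894 matched the table by symbol or older symbol, and 784 distinct genes were tested. Members, lists and the rule for named genes (any list member; outside the lists, the 15 higher and 15 lower genes with the largest change past 1.5-fold at a mean of at least 10 CPM, and 6 and 6 against 24 h) were chosen with earlier results of these data known. Lists are described by counts and medians, without a set test. Promoters come from RefSeq (GRCh38.p14) and were searched for TGANTCA and CATGTG on both strands. The scripts were tested on simulated counts with known changes. DESeq2 1.42.0 was an alternative. Some members of the lists are counted in them but not reported here by name.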

Additional observations from a re-analysis of the deposited data

Results flagged for a closer look

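A set of 15 genes of the lists and of the rule for named genes had changes past 1.5-fold that were opposite at 48 h and at 6 h, each against the same on-drug libraries. A difference between 48 h and 6 h follows from how these genes were chosen, so the direct differences are given as a description, with SEs from edgeR's fit, which shares its spread over all groups.

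Matrix genes moved in both orders. THBS1, thrombospondin 1, stood at -1.68 at 48 h and 4.03 at 6 h, a difference of -5.71 ± 0.14 (SE), with 1.94 and 1.26 CPM at 48 h, against 87.3 and 80.1 CPM at 6 h. CTGF, another matricellular YAP target, stood at -1.54 at 48 h and 1.80 at 6 h, a difference of -3.33 ± 0.14. HAS2 was the reverse, at 1.92 at 48 h and -5.66 at 6 h, with 27.9 and 28.1 CPM at 48 h, against 0.0890 and 0.186 CPM at 6 h. The protease gene ADAMTS6 stood at 1.55 at 48 h and -1.78 at 6 h. FJX1, another YAP target, stood at -1.21 at 48 h and 1.14 at 6 h.

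Among regulators of death and stress, BBC3 stood at 1.06 at 48 h and -3.05 at 6 h, with 11.2 and 11.1 CPM at 48 h, against 0.623 and 0.651 CPM at 6 h (difference 4.11 ± 0.26). ATF5, a relative of ATF4, stood at -1.08 at 48 h and 1.85 at 6 h, and DDIT4, an inhibitor of mTORC1, at 0.82 at 48 h and -0.71 at 6 h. Of cell cycle genes, CDKN2D stood at 1.07 at 48 h and -1.14 at 6 h, RFC4 at 0.78 at 48 h and -0.87 at 6 h, and the spindle checkpoint kinase TTK at 0.82 at 48 h and -1.32 at 6 h.

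The receptors FGFR3 (0.89 at 48 h, -1.09 at 6 h) and INSR (0.91 at 48 h, -1.21 at 6 h) were below on drug at 6 h and above it at 48 h. DENND2A stood at 4.42 at 48 h and -0.83 at 6 h. MT-ND6, the mitochondrial gene on the light strand, stood at -1.76 at 48 h and 0.71 at 6 h. Reads of MT-ND6 and of the opposite strand cannot be told apart, since the strand setting is not given in the sources used here.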

How the results depend on the processing

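The fold changes were computed again under 11 alternatives. At 48 h against on drug, the genes called numbered 10472 with RLE scaling, 8564 with DESeq2, 10721 with no filter on low counts, 10268 with only the libraries compared and 9665 to 10045 when single libraries were left out. Past 1.5-fold the range over left-out libraries was 4153 to 4357. Replicate numbers were not used to pair the samples in the main fit. The deviations of same-numbered libraries had correlations from -0.0393 to 0.0232, which cannot tell whether those libraries were handled as pairs. With the replicate number as a block, 10373 genes were called against on drug and 4035 against 24 h. The count against 24 h was more sensitive: DESeq2 called 2223 genes, 849 higher and 1374 lower, and leaving out single libraries gave 2983 to 3983 called, 1287 to 1793 higher and 1696 to 2190 lower. The cause was not tested. Of 241 genes named in the text, 237 kept their call and sign at 48 h against on drug in every alternative run. The other 4 were CD274, LIFR, OSMR and PAX3. Among 1190 list counts compared, 21 moved by over 1.5 times. Members of the invasive list that fell numbered 3 with DESeq2 and without the first on-drug library, YAP targets that fell 3 with DESeq2, genes of the D cyclin list that fell 3 with DESeq2, and cholesterol genes that fell 7 with DESeq2. Depth limits genes near 1 CPM, for which both groups held few counts.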
